A study of Rattus norvegicus with 5 samples.

Results

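The comparison described here is that of rat liver cells given a Tmub1 knockdown lentivirus with cells given its negative control virus. Its members are the named genes whose probe was well above background on at least 1 of the 2 arrays, 12806 of the 15168 named genes on the array. The study asked how Tmub1 affects transcription in BRL-3A, a line from Buffalo rat liver that the labels call normal hepatocyte cells. It holds 5 one-colour Agilent arrays, 1 for each group: lentiviruses for Tmub1 overexpression and for its knockdown, 2 negative control viruses, 1 matched to each, and normal cells without virus. RNA was taken 48 h after transduction, and all the cells were kept in Dulbecco's modified Eagle's medium with 10% fetal bovine serum. The knockdown sequence, the share of cells that took up virus and whether they were selected are not given in the sources used here. With 1 array a group there is no replicate of the knockdown or of any control, so no difference below carries a test or a p-value.

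Tmub1 (transmembrane and ubiquitin-like domain containing 1, also called Hops) encodes a membrane protein with a ubiquitin-like domain that shuttles between the nucleus and the cytoplasm. Its transcript is known to rise in the regenerating rat liver, and its product is a partner of the ubiquitin ligase complexes that clear misfolded proteins from the endoplasmic reticulum. A lentivirus integrates into the host genome, and foreign nucleic acid in a cell can set off an interferon response of its own.

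A level below is the log2 of the processed signal of the gene's probe relative to the 75th percentile of its array, so that 0 marks that percentile. A difference is the knockdown level minus the control level. A gene was called when its brighter level was well above background and the difference reached 2.5-fold, the fold that the series' design text names. Where the dimmer level was below background the difference is a lower bound, written "at least". The levels of a gene are given in 1 order throughout: knockdown, knockdown negative control, overexpression negative control, normal cells and overexpression.

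The targeted gene was lower on the knockdown array than on each of the other 4. Tmub1, read by the single probe A_64_P114198, had levels of -1.42, 0.38, 0.35, 0.08 and 0.40. The other 4 arrays lay close together and the knockdown array lay below them all. The difference from the knockdown negative control was -1.80, which is 3.48-fold lower, and the 95% interval that the scanner's error estimates give runs from -2.20 to -1.40. It covers the reading of the spots alone. Set against the remaining controls, the fold was 3.41 for the overexpression negative control and 2.83 for normal cells.

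Against its negative control the knockdown array had 1199 genes higher and 1085 lower, 17.8% of the genes measured (9.36% higher and 8.47% lower). The 2 negative controls differed from each other by the same rule in 1046 of 11941 genes (8.76%), which is the background for any single count here. Of the calls of the knockdown array against its own control 52.5% were higher. That share was 73.0% when the 75th percentile was taken over probes that all 5 arrays measured above background, which moved the median of all genes from -0.11 to 0.16, and 45.8% when probes with every spot marked as poor were left out of it. Differences of at least 4-fold numbered 432 higher and 254 lower, against 284 in both directions between the negative controls. At 16-fold there were 12 higher and 5 lower, against 8. Of the 9531 member probes without a gene name, 828 were higher and 687 lower (15.9%).

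The knockdown array stood apart from the whole series on many genes. In 13762 genes measured on at least 1 array, it was at least 2.5-fold above all 4 others in 583 and below all 4 in 315, together 6.53%. The knockdown negative control stood apart in 0.312%, the overexpression negative control in 0.937% and the overexpression array in 0.283%. Normal cells stood apart in 6.48%, and that array was scanned on another day than the 4 transduced ones, so batch and group cannot be told apart for it. Of the 1199 higher genes, 901 (75.1%) were also higher than the other negative control. Such genes made up 7.08% of those measured, and 602 genes (4.74%) were higher than all 3 control arrays. Of the 1085 lower genes, 711 (65.5%) were also lower than the other negative control, or 5.59% of those measured. Only 343 (2.7%) were lower than all 3. These counts share the knockdown array.

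**Figure D1:**
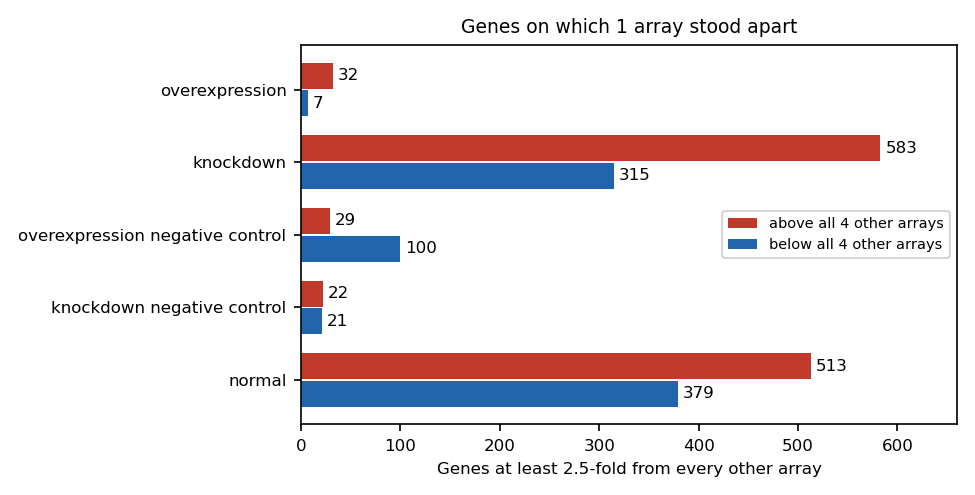
Number of genes (x axis) that were at least 2.5-fold above (red) or below (blue) every other array, for each of the 5 arrays (y axis), of 13762 genes. The knockdown array has 583 and 315 such genes and normal cells 513 and 379, against 22 and 21 for the knockdown negative control.

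Bright genes tended to be lower on the knockdown array. The genes were put in 5 bins of equal number by level. In the brightest bin the median difference was -0.59, with 81 genes higher and 367 lower, while in the middle bin it was 0.14, with 404 higher and 186 lower. Between the negative controls the median of the brightest bin was 0.28. Across all genes the median was -0.16 with dim values replaced (-0.11 as measured). The median processed signal was 356.2 on the knockdown array and 159.7 on that of its control, and 81.0% and 73.2% of their probes were well above background. Normal cells had a median signal of 329.4, the overexpression negative control 116.4 and the overexpression array 143.9. The knockdown array and normal cells, which stood apart on the most genes, were thus also the brightest. What the level of a gene and the brightness of the array add to each count was not tested.

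**Figure D2:**
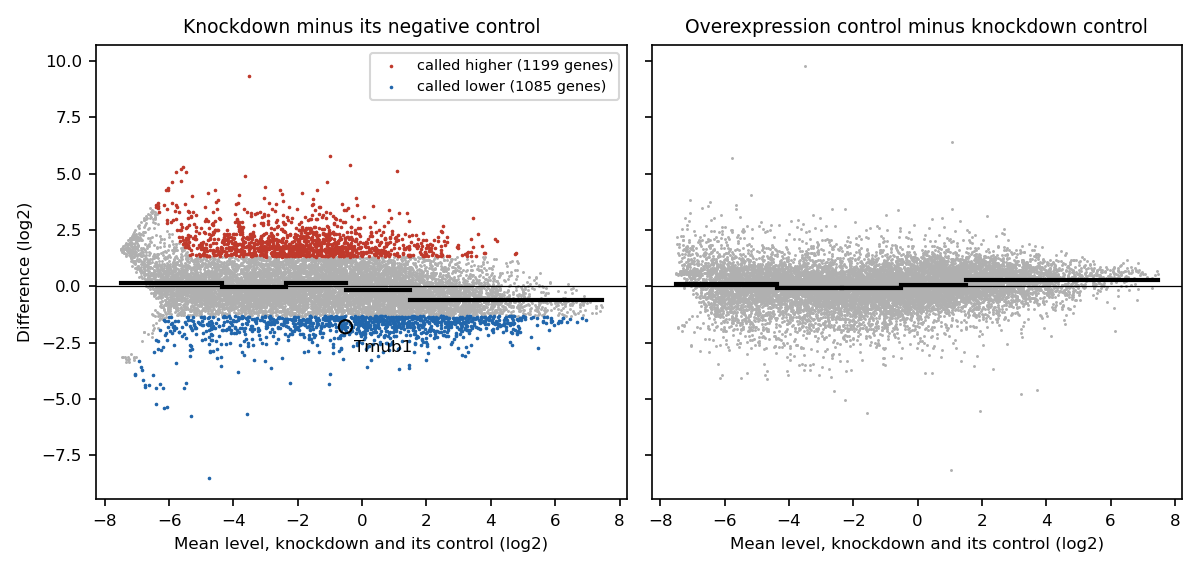
Difference in level (y axis, log2) against the mean level of the knockdown and its negative control (x axis, log2, 0 is the array's 75th percentile) for the 12806 genes, as knockdown minus its negative control (left) and overexpression negative control minus knockdown negative control (right). Red and blue points are called genes, grey points the others, and black bars the median in each of 5 bins of genes by level; the last bar lies at -0.59 on the left and at 0.28 on the right.

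A second probe of the same gene went the way of the call more often for the higher genes than for the lower ones. Second probes of all genes leaned the same way, so the 2 directions are read against their own shares. Of 118 genes called higher that had another probe above background, 91 (77.1%) were at least 1.5-fold higher on that probe too, against 41.5% of all 2074 genes with such a probe. Of 258 genes called lower, 85 (32.9%) were at least 1.5-fold lower on it, against 16.2% of all, and 100 (38.8%) had the opposite sign. The second probes were dimmer, as follows from reading a gene by its brightest probe, with median levels of -2.99 and -2.69 against -1.06 and 0.70 on the main probes. For the genes named below, the difference on another probe is given wherever it was opposite or under 1.5-fold, and for some where it was not.

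Cell type markers were read before the gene groups. Most hepatocyte markers were dim: of 30 hepatocyte markers, 20 were above background on the knockdown array and 14 on its control, with median levels of -5.38 and -6.02. In normal cells 23 were above background, with a median of -4.43. Against the knockdown control Arg1 (8.74-fold) and Cyp2e1 (3.18-fold) were higher, and Ahsg (5.94-fold), Alb (at least 4.44-fold) and Pck1 (2.87-fold) were lower. Of these, Ahsg was lower than all 3 controls, and Cyp2e1 was higher than both negative controls but not normal cells. Arg1 had levels of 1.25, -1.87, 0.28, 0.67 and -1.01, lowest in its own control. Arg1 and Pck1 were not called against the other negative control or normal cells. Alb was below background on both of those arrays too. Tat, Cps1 and Ambp were above background on no array. Of 15 fibroblast and stellate cell markers, 15 and 14 were above background, with medians of 0.77 and 1.58, and the collagen genes Col1a1, Col1a2 and Col3a1 were at 6.68, 4.23 and 6.73 on the knockdown array.

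Most markers of skeletal muscle and fat were higher on the knockdown array than in normal cells. Ckm, the muscle creatine kinase, had levels of 2.85, 3.0, 3.11, -5.92 and 2.97, and Cfd, a protein secreted by fat cells, 2.95, 3.13, 3.23, -7.34 and 2.57. The 4 transduced arrays lay together on both genes. Normal cells were instead the highest array for Myog, a muscle transcription factor, at -1.25 against -2.72 with knockdown, and for the hormone gene Lep, at -4.57 against -5.58. Of 11 muscle markers, 10 were above background with knockdown, 11 on each negative control and 9 in normal cells. The summed muscle markers came to a log2 level of 4.75 with knockdown, 5.25 in its control, 5.30 in the other negative control and 1.02 in normal cells. None was higher than in the knockdown control and 2 were lower, the muscle actin Acta1 at 3.64-fold and the myosin Myh2 by at least 2.87-fold. The 7 fat markers, of which 7, 7, 6 and 4 were above background in the same order of arrays, came to 3.42, 3.89, 3.72 and -2.11, with Pparg 4.76-fold lower. Pparg had levels of -2.38, -0.13, -1.94, -3.45 and -2.45. The knockdown control was the highest array for Pparg, and the gene was not called against the other negative control or normal cells. The 13 macrophage and leukocyte markers came to 3.60, 4.28, 4.0 and 3.37, with Mrc1 lower and the T cell gene Cd3e above background on no array. That sum includes Cd68, whose probe had marked spots and gave no call; its marked readings were 1.0 with knockdown and 2.85 in the control. Endothelial markers came to 1.38, 0.79, 2.19 and 1.89 for 8 genes, with Tek higher and Erg lower. Bile duct and progenitor markers came to -0.29, -0.35, 0.77 and -0.48 for 7 genes, with Krt7 higher and Krt19 lower. The part of other cell types in the gene groups below was not tested.

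DNA replication genes were higher with the knockdown virus. Before a cell copies its DNA, the origin recognition complex and Cdc6 load the MCM helicase, after which polymerases and their clamp loaders build the fork. Of 37 genes of this machinery, 13 were called higher and 0 lower, against 9.36% higher among all genes, and the median difference was 1.13. Of the 13, 12 were also higher than the other negative control and 8 higher than all 3 controls. Its median was 0.91 relative to the overexpression negative control and 0.41 relative to normal cells, and 0 of these genes differed between the negative controls.

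The origin recognition genes Orc1, Orc5 and Orc6 were 3.52-, 2.58- and 4.38-fold higher, and Cdc6 was 3.22-fold higher. Mcm6, a subunit of the helicase ring, had levels of 0.63, -2.62, -3.52, -1.22 and -2.61. The knockdown array was highest, normal cells came next, and the remaining 3 transduced arrays were lowest, a difference of 9.55-fold from the knockdown control. Mcm10, which helps to start the helicase, was 7.69-fold higher, and its other probe was 1.03 higher. Gins2, a part of the active helicase, was 3.58-fold higher.

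At the fork, Pola1, the catalytic subunit of the polymerase that lays primers, had levels of -1.05, -4.75, -4.06, -3.40 and -3.97, which is 13.0-fold over the knockdown control. All 4 other arrays were lower by more than 2 log2 units. Its partner Pola2 was at least 5.90-fold higher, the leading-strand polymerase Pole 5.46-fold, the clamp loader subunits Rfc5 and Rfc3 4.45- and 3.31-fold, and Rpa2, which binds single-stranded DNA, 2.88-fold. Rfc3 did not pass the threshold against the other negative control.

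Of 10 genes that supply deoxynucleotides, 3 were higher and 0 lower, with a median of 1.16. With normal cells as the control the median was -0.37, with the overexpression negative control 1.06, and 1 gene was above all 3 controls. Rrm1, the large subunit of ribonucleotide reductase, had levels of 1.12, -2.27, -4.73, -1.14 and -2.88, 10.4-fold above the knockdown control. The 3 controls of this gene spread widely, and the knockdown array lay above all of them. Tk1, the thymidine salvage kinase, had levels of 2.01, -0.67, -0.11, 2.29 and -0.48, so that it was 6.39-fold above its control but level with normal cells.

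Mitosis genes were higher than in the knockdown control, and part of that difference lay between the negative controls too. Of 30 mitotic kinase, checkpoint and spindle genes, 14 were higher and 0 lower, with a median of 1.14. Of these 9 were also higher than the other negative control and 5 higher than all 3 controls. Relative to the overexpression negative control the median was 0.26, and relative to normal cells it was -0.02. Between the negative controls themselves it was 0.73, with 6 genes higher and 2 lower.

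Of the 14 calls, 10 lay among the 13 measured chromosomal passenger and spindle genes. Aurkb, the kinase of the chromosomal passenger complex, had levels of -0.45, -4.56, -4.47, -1.99 and -4.86. It was 17.3-fold above the knockdown control, and normal cells lay between. Its partners Cdca8 and Incenp were 4.84- and 4.58-fold higher. Tpx2, which activates Aurora A on the spindle, had levels of 0.31, -3.36, -3.40, -1.60 and -3.15, 12.7-fold over the control, again with normal cells next.

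The centrosome kinase Nek2 was 9.96-fold higher, and its other probe was 2.62 higher. Kinetochore genes included Nuf2 at 8.45-fold, Cenpf at 6.17-fold and Cenpa at 4.39-fold. For Nusap1 and Ndc80 the knockdown control was the array that stood low: Ndc80 had levels of 1.15, -0.26, 1.24, 1.61 and 0.56. The knockdown array did not exceed the other negative control for that gene. Of 7 checkpoint and anaphase-promoting complex genes, 1 was higher, Fbxo5, an inhibitor of that complex, at 3.18-fold.

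Kinesins, the motors that walk along microtubules, had a median of 1.18, with 6 of 17 higher and 0 lower. The spindle midzone motor Kif23 was 5.45-fold higher, Kifc1 4.44-fold and Kif2c 3.23-fold. Kif5b, a motor of cargo transport, was 3.68-fold higher and the only kinesin above all 3 controls. The median against the other negative control was 0.06. Among 30 cyclins and their regulators, 7 were higher and 2 lower, or 30.0% against 17.8% of all genes, with a median of 0.27. Ccne2, the cyclin of S phase entry, was 6.79-fold higher, Ccnb2, a mitotic cyclin, 5.38-fold, the G1 kinase Cdk6 10.9-fold and the transcription factor E2f3 13.1-fold. The levels of E2f3 were -2.01, -5.72, -5.05, -3.26 and -5.54, so the knockdown array was highest. The inhibitor Cdkn1a was 3.09-fold lower than in the knockdown control, with levels of 3.61, 5.24, 4.49, 3.56 and 4.77, and was level with normal cells. The phosphatase gene Cdc25b was 3.84-fold lower, while its other probe differed by -0.37.

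Promoters of the called replication and mitosis genes often held a CCAAT box, the binding site of the factor NF-Y that many cell cycle promoters carry. The letters CCAAT were searched on both strands in the 250 bases before the start of transcription in the RefSeq promoters of build GRCr8. They were found in 15 of 22 called genes with a promoter in the table (68.2%), in 20 of 39 genes of the same lists that were not called (51.3%) and in 36% of all 10465 measured genes with a promoter. The cell cycle homology region, searched as TTTGAA, was in 3 of the 22 (13.6%), in 12 of the 39 not called (30.8%) and in 12.4% of all measured genes. Mcm6 and Fbxo5 are shown as examples. Their boxes lie within the last 120 bases before the start, as do those of Pole, Nek2 and other called genes. The boxes, read on either strand, are in capitals.

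Mcm6, chr13:42404353-42404472, minus strand: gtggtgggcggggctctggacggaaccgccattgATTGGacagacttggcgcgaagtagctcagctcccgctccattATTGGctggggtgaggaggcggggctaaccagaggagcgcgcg
Fbxo5, chr1:44607782-44607901, minus strand: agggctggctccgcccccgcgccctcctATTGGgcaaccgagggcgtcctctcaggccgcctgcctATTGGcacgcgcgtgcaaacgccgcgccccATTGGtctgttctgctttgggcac

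Interferon-induced genes were lower than in the knockdown control. Interferon made by a cell that senses foreign nucleic acid acts through transcription factors such as Irf9, which switch on antiviral genes by way of a shared promoter element. Of 36 effector genes of this response, 21 were lower and 0 higher, against 8.47% lower among all genes, and the median was -1.65. Of these 21, 8 were also lower than the other negative control, and 0 were lower than all 3 controls. Relative to the overexpression negative control the median was -0.27, and relative to normal cells 0.52. Between the 2 negative controls it was -0.85, with 9 genes lower and 0 higher in the overexpression control.

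Isg15, a ubiquitin-like protein attached to other proteins during infection, had levels of -1.64, 1.93, -0.51, -4.39 and 3.35. The knockdown array lay 11.9-fold below its own control but above normal cells, and overexpression was highest. All 4 measured genes of Isg15 conjugation were lower, including the protease Usp18 that removes it, at 4.96-fold, and its transfer enzyme Ube2l6, at 4.48-fold. Ube2l6 was also lower than the other negative control.

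Rsad2, an enzyme that makes a nucleotide which stops viral polymerases, had levels of -0.35, 3.29, 2.05, -2.77 and 4.80, 12.5-fold lower than the control. Here too the knockdown array lay between normal cells and the 3 other transduced arrays. For Mx2, a dynamin-like antiviral GTPase, the levels were 1.65, 4.77, 4.66, 2.97 and 5.64, and the knockdown array was the lowest of all 5. Its fold below the knockdown control was 8.69, and below normal cells it did not reach the threshold. Ifi44 was 7.17-fold lower, Rtp4 7.59-fold and Gbp2, a GTPase that acts on pathogen vacuoles, 3.82-fold, each also below the other negative control. Of the effectors, 3 had another probe, which differed by -1.68 for Usp18, -0.06 for Parp14 (3.77-fold lower on its main probe) and 0.42 for Gbp5 (0.51 on its main probe).

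Of 10 oligoadenylate synthetase genes, which make the messenger that switches on RNase L, 4 were lower: Oas1a by 5.90-fold, Oas1k by 5.74-fold, Oasl2 by 4.22-fold and Oas1i by 3.14-fold. None of the 4 was called lower than the other negative control, which was itself lower than the knockdown control in 5 of the 10. The Oas1 genes are near copies of each other, and a probe may read more than 1 of them. Among 22 sensors and factors, 4 were lower and 0 higher, with a median of -0.65. The share called, 18.2%, was near the 17.8% of all genes. Of the 4, 1 was also lower than the other negative control and 0 were lower than all 3 controls. Quantile scaling and cyclic loess gave 2 higher and 4 lower, and normexp gave 3 higher and 2 lower. Irf7, the factor that amplifies the response, was 5.92-fold lower, with levels of 0.72, 3.29, 1.18, -0.63 and 4.10. Socs1, a feedback inhibitor, and the sensor Dhx58 were 3.77- and 2.51-fold lower.

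Of 13 genes that cut peptides and present them on MHC class I, 5 were lower and 0 higher, with a median of -0.89. B2m, the light chain of the complex, had levels of 4.18, 5.67, 5.68, 4.74 and 6.16, 2.81-fold lower than the control. The proteasome activator Psme2 was 3.47-fold and the immunoproteasome subunit Psmb10 2.52-fold lower, and these 3 genes were lower than both negative controls. The class I heavy chain genes RT1-S3 and RT1-A2, members of a large family of near copies, were 3.17- and 2.53-fold lower. Against normal cells the median of the list was 0.82. The count of 5 fell to 2 with quantile scaling, normexp, the authors' log2 values and the percentile over all spots or over probes measured on all 5 arrays, and to 1 with cyclic loess.

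The core of the interferon response element, searched as GAAANNGAA on both strands in the same 250 bases, was in 13 of the 16 called effector genes that had a promoter in the table (81.2%). It was in 6 of the 11 effector genes not called (54.5%), in 7.90% of all genes called lower and in 6.96% of all measured genes. The 4 promoters shown hold it close to the start of genes named above or called in the same list, with the matching bases in capitals, on either strand.

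Oas1a, chr12:41330346-41330465, plus strand: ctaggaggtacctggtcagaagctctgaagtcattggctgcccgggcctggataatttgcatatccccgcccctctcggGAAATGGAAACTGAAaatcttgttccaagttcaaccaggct
Ifi44, chr2:243303841-243303960, minus strand: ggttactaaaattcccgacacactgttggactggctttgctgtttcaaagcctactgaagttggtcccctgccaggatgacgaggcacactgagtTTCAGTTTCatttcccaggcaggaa
Gbp2, chr2:234005607-234005726, plus strand: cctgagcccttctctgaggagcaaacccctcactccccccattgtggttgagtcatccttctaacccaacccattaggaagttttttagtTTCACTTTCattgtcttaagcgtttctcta
Lgals3bp, chr10:104127849-104127968, minus strand: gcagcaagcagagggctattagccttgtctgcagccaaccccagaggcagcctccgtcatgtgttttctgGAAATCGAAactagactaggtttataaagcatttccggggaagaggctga

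In Oas1a the capitals hold 2 overlapping copies of the core. Lgals3bp, a secreted glycoprotein, was 2.81-fold lower, with levels of 3.65, 5.14, 4.87, 3.63 and 5.65. Its knockdown level was that of normal cells. A match in these letters is a description of the promoter and shows no binding.

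**Figure D3:**
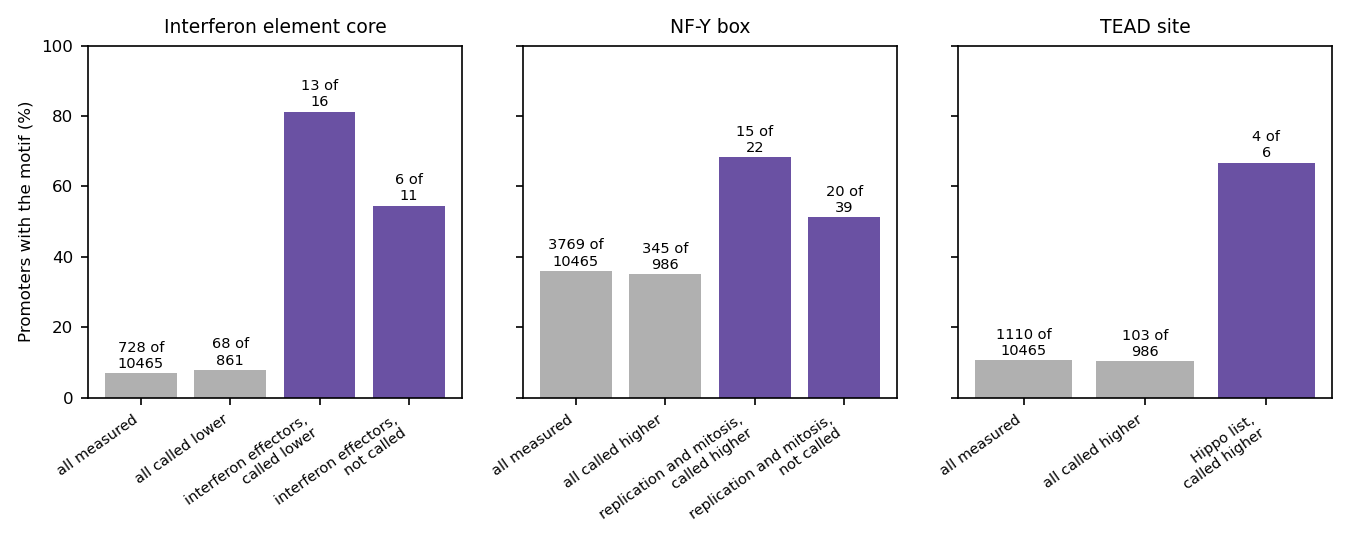
Percent of promoters (y axis) that hold the interferon element core, the CCAAT box bound by NF-Y, or the TEAD site in the 250 bases before the start, with the counts above each bar. Grey bars are all measured or all called genes and purple bars the gene lists; the called interferon effectors reach 81.2% and the called Hippo genes 66.7%.

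**Figure D4:**
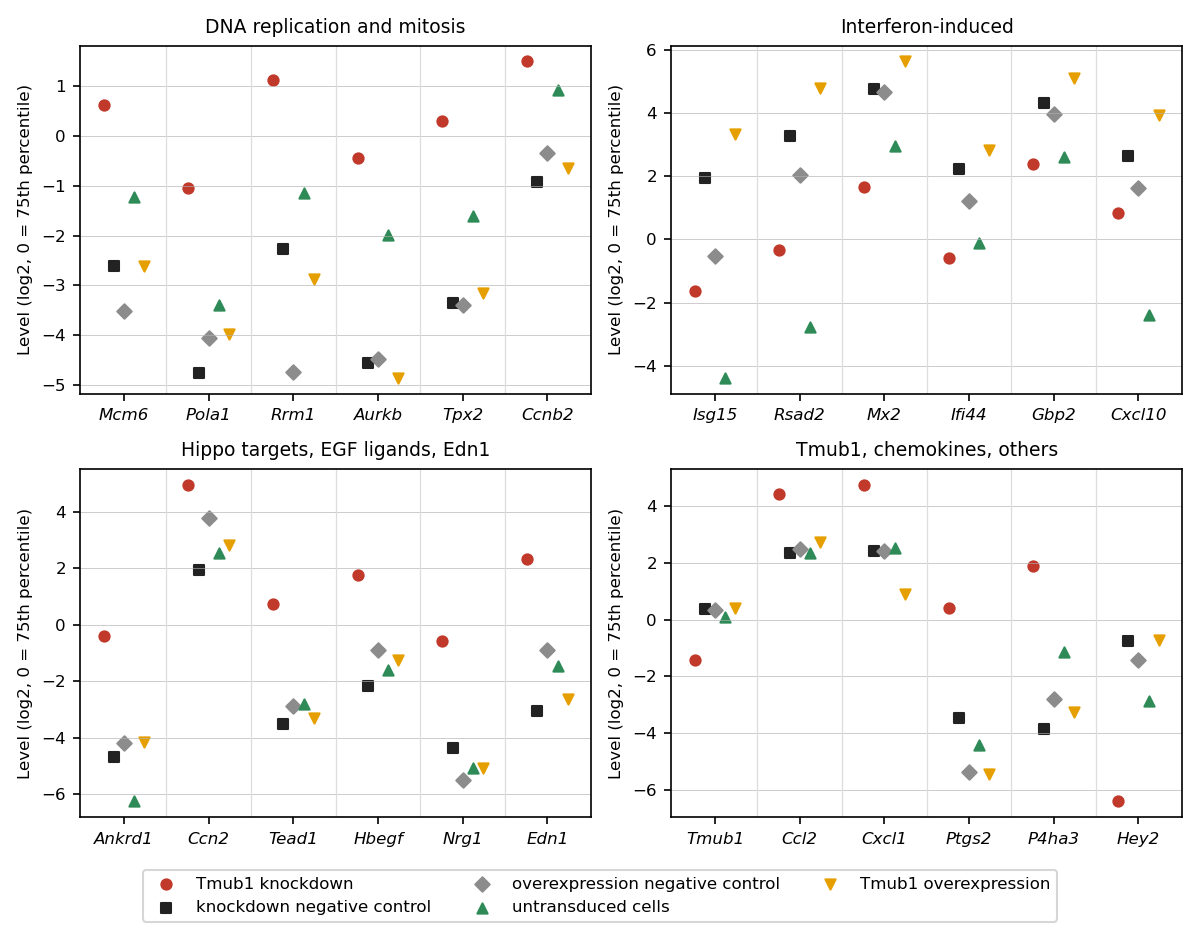
Level (y axis, log2, 0 is the array's 75th percentile) of 24 genes on the 5 arrays, 1 point for each array, as there was 1 array a group. The knockdown array (red circle) is highest for all 6 replication and mitosis genes, and for Isg15, Rsad2 and Cxcl10 it lies between normal cells (green triangle) and the other transduced arrays.

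More than 9.36%, the share of all genes, were higher among those of the Hippo pathway. In this pathway the kinases Lats1 and Lats2 keep the co-activators Yap1 and Taz (the product of Wwtr1) out of the nucleus, and when they enter it they bind TEAD factors and switch on targets such as Ccn1 and Ccn2. Of 25 genes, 9 were higher and 0 lower, with a median of 0.70, and the medians against the other negative control and normal cells were 0.68 and 0.82. Of the 9, 6 were also higher than the other negative control and 5 higher than all 3 controls. The targets gave 6 of 12 and the kinases and adaptors 1 of 8.

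Tead1, a DNA-binding partner of Yap1, had levels of 0.74, -3.52, -2.86, -2.81 and -3.29, which is 19.2-fold over the control. Ankrd1, a target that encodes a muscle stress protein, had levels of -0.41, -4.67, -4.18, -6.25 and -4.16, also 19.2-fold. In both genes the 4 other arrays lay far below the knockdown array. Ccn2, a matrix signalling protein, had levels of 4.96, 1.94, 3.8, 2.54 and 2.82, 8.07-fold over its control. Its other negative control lay closer, and the difference there was below the threshold, as for Ccn1 at 4.48-fold and Ajuba at 3.56-fold. Amotl2, counted here among the adaptors, restrains Yap1 and was 11.6-fold higher. The receptor kinase Axl was 3.57-fold, Dlc1 3.52-fold and Wwtr1 2.72-fold higher.

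The TEAD site, searched as GGAATG on both strands in the 250 bases, was in 4 of the 6 called Hippo genes with a promoter in the table (66.7%), in 10.4% of all genes called higher and in 10.6% of all measured genes. The list holds known TEAD targets and its genes not called were not searched as a group, so the share cannot be tied to the calls. Ccn1 and Ccn2 are shown with the sites in capitals, on either strand.

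Ccn1, chr2:237225690-237225809, minus strand: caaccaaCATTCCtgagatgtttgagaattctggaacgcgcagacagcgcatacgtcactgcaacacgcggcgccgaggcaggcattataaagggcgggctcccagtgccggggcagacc
Ccn2, chr1:22624615-22624734, minus strand: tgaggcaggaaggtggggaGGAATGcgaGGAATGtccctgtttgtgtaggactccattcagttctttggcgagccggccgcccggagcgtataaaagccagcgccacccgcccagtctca

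Contractile genes, many of which are known targets of serum response factor and Yap1, had a median of 0.89, with calls for 4 of 16, all of them higher, and for 8 with quantile scaling, cyclic loess and the authors' log2 values. Tagln, which encodes a smooth muscle protein that binds actin, had levels of 2.91, 0.02, 0.88, 0.67 and 1.16, 7.42-fold over the control. The actin cross-linker Actn1 was 5.43-fold and the tropomyosin Tpm4 4.0-fold higher, both above all 3 controls. The smooth muscle myosin Myh11 was 3.66-fold higher, while its other probe differed by 0.13. The median of the list against the other negative control was 0.15. Of the skeletal muscle markers, 0 of 11 were higher.

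Several ligands of the EGF receptor family were higher. These growth factors are made as membrane proteins, are cut free by Adam17 and act on the cell itself or its neighbours. Of 6 measured, 3 were higher and 0 lower. Hbegf had levels of 1.78, -2.15, -0.89, -1.58 and -1.23, 15.3-fold over the control. Nrg1, a ligand of Erbb3 and Erbb4, had levels of -0.58, -4.35, -5.49, -5.08 and -5.06, 13.7-fold over it. Both were highest on the knockdown array by more than 2 log2 units. Btc was 3.65-fold and Adam17 3.89-fold higher, also above all 3 controls.

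In the wider list of growth factors and ERK feedback, 9 of 43 genes were higher and 8 lower, with a median of -0.07 that turned positive with 6 of the 7 other scalings. Of the 9, all were higher than all 3 controls, whereas of the 8, only Igf2 was lower than all 3. The feedback inhibitors differed in both directions: Spry2 was 12.5-fold and Dusp1 7.92-fold higher, and Dusp10 was 5.14-fold, Spry4 3.0-fold and Dusp5 2.52-fold lower. The other probe of Spry4 differed by -0.02. Bdnf was 4.29-fold and the receptor Igf1r 3.94-fold higher. Igf2, a fetal liver growth factor, had levels of 6.21, 7.72, 8.37, 7.62 and 8.13, 2.86-fold lower than the control. The platelet-derived growth factor gene Pdgfa was 4.09-fold and its receptor Pdgfrb 3.99-fold lower, and Pdgfrb stood near normal cells.

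Among 24 AP-1 and immediate early genes, 2 were higher and 3 lower, which is 20.8% against 17.8% of all genes. Between the negative controls 6 were lower and 0 higher. Jun, a core AP-1 subunit, was 3.28-fold and Egr1 5.39-fold higher, both above all 3 controls. Jund and Junb were 3.8- and 3.0-fold lower. Ier5 was 3.72-fold lower with -0.04 on its other probe.

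Vasoactive peptides gave one of the largest differences. Edn1, the precursor of the vessel-constricting peptide endothelin, had levels of 2.33, -3.06, -0.89, -1.45 and -2.62. The knockdown array was 41.7-fold above its control, 13.7-fold above normal cells and 9.29-fold above the overexpression negative control. Nppb, the natriuretic peptide gene, had levels of -0.84, -4.49, -3.88, -5.64 and -3.8, 12.5-fold over the control. The thrombin receptor F2r was 4.73-fold higher and the natriuretic receptor Npr3 8.99-fold, the latter close to normal cells at 0.36 and -0.24. In all, 5 of 16 such genes were higher and 1 lower, Agt at 2.57-fold, or 37.5% called against 17.8% of all genes.

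Chemokines went in both directions. They draw white blood cells to a tissue, and NF-kB and interferon each switch on a part of them. Of 10 CC chemokines 3 were higher and 2 lower, and of 9 CXC and CX3C chemokines 2 were higher and 1 lower. Ccl2 had levels of 4.43, 2.34, 2.51, 2.34 and 2.75, which is 4.26-fold over the control. Ccl7, another monocyte attractant, was 11.7-fold, Ccl20, which draws T cells and dendritic cells, 10.5-fold and Cxcl1, a neutrophil attractant, 5.04-fold higher, all above all 3 controls. Ccl11, an eosinophil attractant, and the interferon-inducible Ccl5 and Cxcl10 were 5.89-, 6.71- and 3.50-fold lower. The levels of Cxcl10 were 0.85, 2.65, 1.63, -2.40 and 3.93, between normal cells and the transduced controls.

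Among the interleukins, Il1a was 6.06-fold and Il24 at least 27.9-fold higher. Il1rl1, the receptor of interleukin 33, had levels of 1.22, -3.39, -1.26, -1.08 and -1.26, 24.5-fold over its control and 1.51 higher on its other probe. Its own control was the lowest of the 5 arrays. Of the 41 chemokine and cytokine genes, 9 were higher and 3 lower, or 29.3% against 17.8% of all genes, with a median of 0.32. In the NF-kB pathway itself, 3 of 15 were higher and 1 lower, or 26.7%, while normexp gave 1 higher and 0 lower. The kinase subunits Chuk and Ikbkg were 4.09- and 3.72-fold and the adaptor Traf6 at least 3.96-fold higher, and Myd88 was 3.15-fold lower. Ptgs2, the inducible prostaglandin synthase, had levels of 0.42, -3.47, -5.37, -4.42 and -5.44, 14.8-fold over the control. Of 13 prostaglandin genes, 2 were higher and 0 lower, or 15.4% against 17.8% of all genes.

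Among collagen genes the enzymes gave most of the calls. Prolyl hydroxylases let the collagen triple helix hold together, and lysyl oxidases cross-link its fibres. P4ha3, a prolyl hydroxylase subunit, had levels of 1.90, -3.87, -2.81, -1.15 and -3.26, and at 54.6-fold it was the largest measured difference among the listed genes. It was 26.2-fold higher than in the overexpression negative control and 8.27-fold higher than in normal cells. P4ha2 was 4.51-fold and P4ha1 3.7-fold higher, and Loxl3, Loxl2 and Loxl4 were 4.98-, 4.47- and 2.73-fold higher, Loxl4 with 0.18 on its other probe. Of 10 collagen chains, 1 was higher, Col5a1 at 3.7-fold, and 0 were lower. The whole list gave 7 of 28 higher and 0 lower, with a median of 0.26.

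Serpinb2, which blocks the activators of plasmin, had levels of 0.19, -3.94, -3.59, -2.72 and -3.78, highest on the knockdown array and 17.5-fold over the control. Of 13 matrix metalloproteinases, 1 was higher, Mmp3 at 9.62-fold, and 5 were lower, with Mmp7 at least 6.22-fold and Mmp14, a membrane collagenase, 6.12-fold. The levels of Mmp14 were 3.36, 5.97, 5.01, 4.16 and 5.51. Adamts9 was 6.17-fold lower, with levels of -0.49, 2.13, 4.75, 2.40 and 4.50, below all 3 controls. Of 27 integrins and matrix glycoproteins 4 were higher, with Thbs1 at 3.56-fold and Tnc at 2.57-fold above all 3 controls, and elastin, Eln, was 2.97-fold lower. The share called, 18.5%, was near the 17.8% of all genes. Between the negative controls 5 of these genes were higher and 1 lower. The gene Fbn1 was 4.51-fold higher, but its levels of 3.71, 1.54, 3.90, 3.61 and 2.18 show the other negative control and normal cells level with the knockdown array.

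In the TGF-beta family, 9 of 33 genes were higher and 4 lower, with a median of 0.37, against 9.36% higher and 8.47% lower among all genes. Between the negative controls 5 of these genes were higher and 5 lower. Bmp6, which controls iron through the liver, had levels of 0.53, -2.77, -2.49, -1.80 and -3.07, 9.84-fold over the control. The mediator Smad2 was 5.07-fold, the receptor Tgfbr2 3.81-fold and the latency protein Ltbp1 5.14-fold higher, each above all 3 controls. Inhbb was 5.36-fold higher on its main probe and differed by -1.15 on the other. Inhba, an activin subunit, was 4.54-fold lower, with levels of -4.31, -2.13, -0.73, -2.89 and -0.29, and the activin receptor gene Acvr2b 4.13-fold lower. The decoy receptor Bambi was 3.98-fold lower.

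In the Notch and Wnt list 1 of 24 genes was higher and 4 lower, with a median of -0.47. The share called was 20.8%, against 17.8% of all genes. Hey2, a repressor switched on by Notch, had levels of -6.42, -0.76, -1.44, -2.87 and -0.71. At 50.5-fold it was the largest measured decrease among the listed genes, and its other probe differed by -2.43. Notch1 was 2.88-fold and Wnt4 6.45-fold lower, both below all 3 controls, and Fzd1 was 4.19-fold lower. The receptor Fzd4 was at least 11.9-fold higher.

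**Figure D5:**
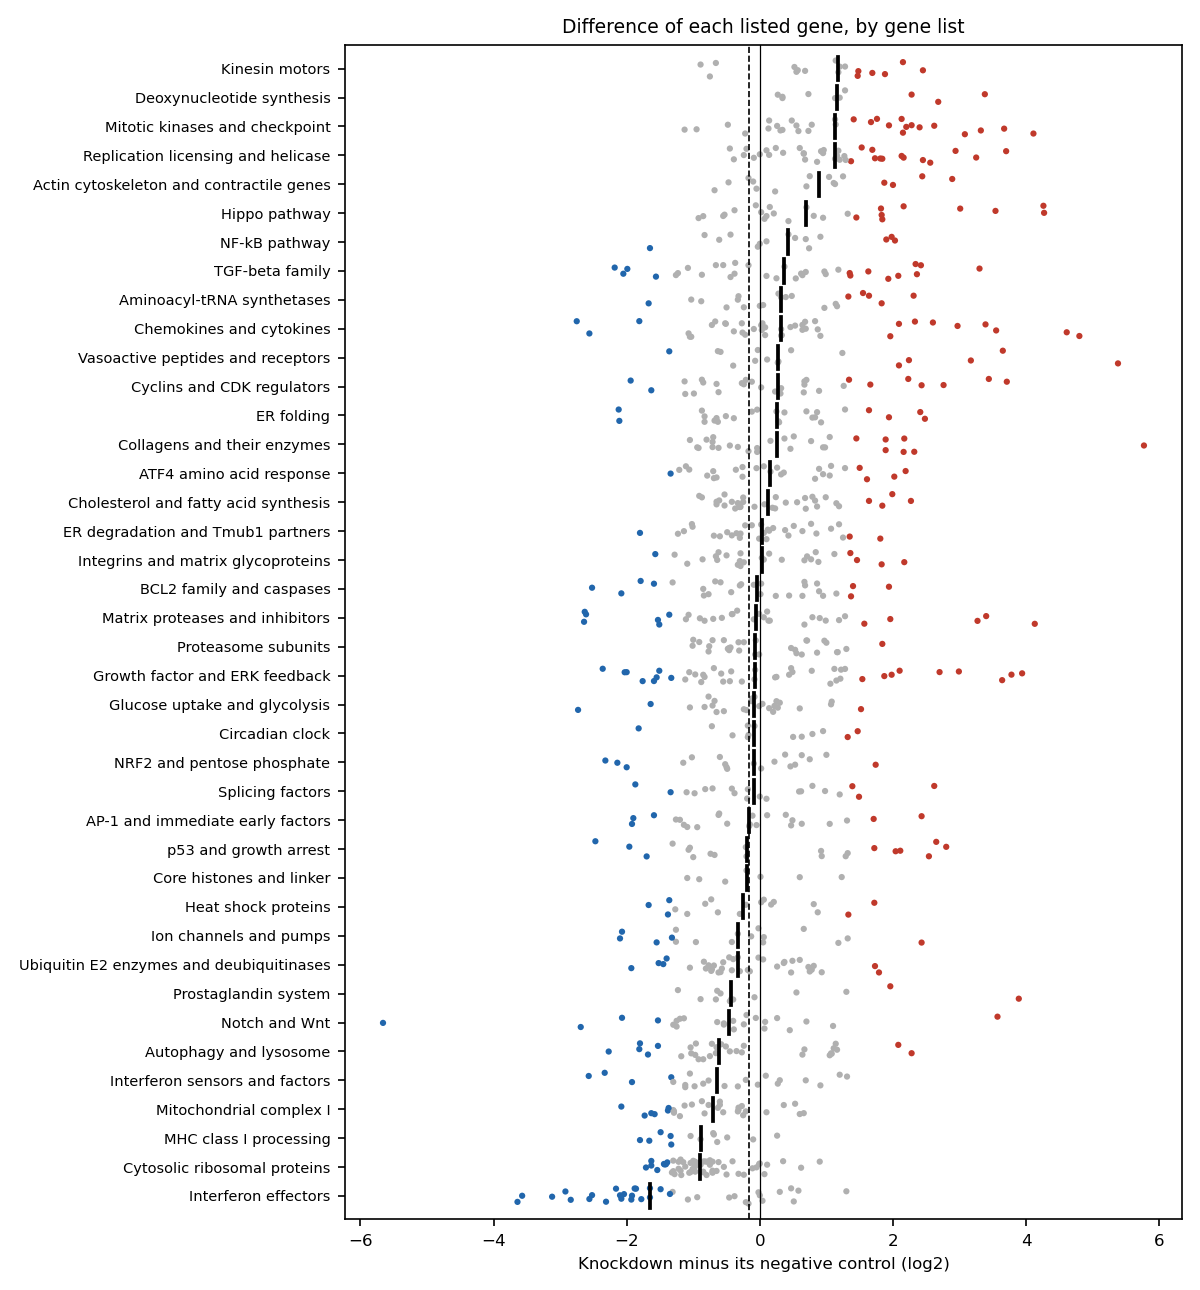
Difference between the knockdown array and its negative control (x axis, log2) for each measured gene of the 40 lists (y axis, ordered by median). Red and blue points are genes called higher and lower, grey points those not called, black ticks the list medians and the dashed line the median of all genes, -0.16; the interferon effectors lie at -1.65 and the kinesins at 1.18.

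Few of the partners of Tmub1 in protein quality control were called with the scaling used here. Of 32 genes of degradation at the endoplasmic reticulum, 2 were higher and, besides Tmub1, 0 lower, with a median of 0.04 that turned to -0.03 when such poor probes were left out of the 75th percentile. The share called was 9.38%, against 17.8% of all genes. The counts, Tmub1 included, were 4 and 1 with quantile scaling and cyclic loess, and 5 and 1 with the percentile over probes measured on all 5 arrays. All 12806 genes gave 1166 and 1038 with quantile scaling, 1161 and 877 with cyclic loess and 1753 and 648 with that percentile. The gap to all genes narrowed or closed with these scalings. Ube2j1, a ubiquitin-conjugating enzyme of that membrane, was 3.50-fold and Vcp, the ATPase that pulls proteins out of it, 2.55-fold higher. The differences of the ligase genes Syvn1 and Rnf185 were -0.60 and 0.77, those of Erlin1 and Erlin2 -0.69 and 0.85, with 2.96 on the other probe of Erlin1, of Tmem259 0.43 and of Bag6 -0.22. Tmub2, the paralog of Tmub1, had levels of 2.28, 3.42, 3.76, 3.18 and 3.73, a difference of -1.14 that was not called.

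Of 26 chaperones and folding enzymes, 4 were higher and 2 lower, or 23.1% against 17.8% of all genes. Canx, Pdia4 and Pdia3 were 5.59-, 5.31- and 3.85-fold higher, above all 3 controls, while Hyou1 was 4.33-fold and Dnajb9 4.31-fold lower. Of 30 proteasome subunits 1 was higher, Psmd7 at 3.58-fold, and 0 lower, whereas quantile scaling gave 6 and 0. Among 37 ubiquitin-conjugating and deubiquitinating enzymes, 2 were higher and 4 lower, or 16.2%, near the 17.8% of all genes, and among the lower ones was Uchl1 at 3.8-fold. Cyclic loess left 0 lower and turned the median from -0.33 to 0.18. Of the heat shock proteins 2 of 18 were higher and 3 lower, with Hspa9 at 3.3-fold above all 3 controls.

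Among 27 genes of the ATF4 amino acid response, 4 were higher and 1 lower, with medians of 0.16 against the control and 1.70 against normal cells. The share called, 18.5%, was near that of all genes, 17.8%. Quantile scaling and the authors' log2 values gave 8 higher and 0 lower, cyclic loess and normexp 7 and 0. Sesn2, an amino acid sensor, was 4.56-fold and the transporter Slc1a4 4.05-fold higher. Of 21 aminoacyl-tRNA synthetase genes 5 were higher, led by Hars1 at 4.98-fold, and 1 lower, the scaffold gene Aimp1 at 3.18-fold.

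Of 58 cytosolic ribosomal protein genes, 8 were lower and 0 higher (8.47% of all genes were lower), with a median of -0.90 against a median of -0.59 in the brightest of the 5 bins. The sign of that median turned with cyclic loess, which corrects for level: it was then 0.06, with 2 genes higher and 0 lower. Quantile scaling gave 1 higher and 0 lower. Rps28 had levels of 5.10, 6.80, 7.24, 6.59 and 7.07, 3.27-fold below the control. Many ribosomal protein genes have near-identical processed copies, so their probes may read more than 1 locus. Of 30 subunits of mitochondrial complex I, 6 were lower and 0 higher, with a median of -0.70 that was -0.24 with cyclic loess, where 0 were called. Ndufb4 was 4.24-fold lower and its other probe differed by -1.24. The share of these groups that goes with their level was not tested.

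In the p53 list 6 of 21 genes were higher and 3 lower, or 42.9% against 17.8% of all genes. Against both negative controls 4 were higher and 2 lower. Between the negative controls 5 genes of this list were lower and 0 higher in the overexpression control. Pmaip1 was 6.96-fold, Gadd45g 6.27-fold and Plk2 4.12-fold higher, above all 3 controls, and Btg1 3.89-fold and Bbc3 3.26-fold lower. Zmat3 was 5.53-fold lower on its main probe and 1.42 higher on the other. Of 28 BCL2 family and caspase genes, 3 were higher and 4 lower: Bmf, which promotes cell death, was 5.73-fold lower, with levels of -5.37, -2.85, -1.88, -2.21 and -1.65, and Casp8 was 3.84-fold higher. Of 32 autophagy and lysosome genes, 2 were higher and 5 lower, or 21.9% against 17.8% of all genes. Becn1 was 4.85-fold higher and the protease Ctsd 4.81-fold lower. The counts were 5 and 3 with quantile scaling and the authors' log2 values, 4 and 1 with cyclic loess, and 7 and 4 with the percentile over probes measured on all 5 arrays.

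Of the cholesterol and fatty acid list 11.8% was called, of the glycolysis list 11.1%, of the NRF2 and pentose phosphate list 21.1% and of the circadian list 23.1%, against 17.8% of all genes. Of 34 cholesterol and fatty acid genes 4 were higher and 0 lower, with Sc5d, an enzyme late in cholesterol synthesis, at 4.84-fold. Of 27 glycolysis genes 1 was higher and 2 lower, and the phosphofructokinase gene Pfkp had levels of 1.61, 4.34, 4.98, 2.97 and 5.54, 6.61-fold lower than the control. Of 19 NRF2 and pentose phosphate genes 1 was higher and 3 lower, with Rpia 4.99-fold and Taldo1 4.42-fold lower. Abcc4 was 4.01-fold lower and its other probe was 0.46 higher. Circadian genes gave 2 of 13 higher and 1 lower, Cry1 at 3.54-fold. None of 7 core and linker histone genes was called.

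Among 17 ion channels and pumps, 1 was higher and 4 lower, or 29.4% against 17.8% of all genes. Clic4 was 5.39-fold higher. Trpv2 was 4.28-fold and Kcnma1 4.20-fold lower, the latter with 0.03 and -0.08 on its other probes. Of 20 splicing factors 3 were higher, led by Hnrnpa2b1 at 6.16-fold, and 2 lower. One of the lower ones, Hnrnph1 at 3.65-fold, was 2.19 higher on its other probe.

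Genes outside the lists were ranked by their difference, among those called against each of the 3 controls with every array above background. Pask, a nutrient-sensing kinase, had levels of -1.09, -5.02, -4.45, -2.67 and -4.82, 15.3-fold over the control. Fam111a, a protease needed for DNA replication past obstacles, was 12.4-fold higher and 3.67 higher on its other probe. Wdhd1, which tethers the polymerase to the fork, was 10.3-fold higher. Cd55, which shields cells from complement, was 12.2-fold higher, with a log2 difference of 4.62 on its other probe. Rnd3 was 10.4-fold, Rab30 11-fold, Arhgap28 11.5-fold, Nuak2 9.26-fold and the cytokine subunit gene Il23a 9.02-fold higher.

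The largest decreases by the same rule began with Pnoc, the precursor of nociceptin, with levels of -3.21, 1.13, 1.5, 0.28 and -0.94, 20.2-fold below the control. Alpl, the tissue-nonspecific alkaline phosphatase, had levels of -2.95, 0.94, 1.71, -0.77 and 2.91, 14.8-fold below it. Runx1, a transcription factor of blood and mesenchymal cells, had levels of -0.27, 3.21, 2.35, 1.51 and 3.27, 11.2-fold below it. In each the knockdown array was the lowest of the 5. The mitochondrial genes Slc25a42 and Aldh6a1 were 13.9- and 11.8-fold lower, Hoxd10 10.0-fold, the guidance ligand Efnb1 8.56-fold and the hormone gene Pthlh 8.33-fold. Some genes were below background on 1 side. The sialyltransferase gene St8sia2 was at least 10.7-fold higher, Arhgef39 was at least 10.1-fold higher, and Arl6ip6 was lower by at least 19.5-fold. Styxl1 was lower by at least 75.2-fold. For Styxl1 the levels were -9.03, -0.49, 0.67, -1.82 and -0.06, below background on the knockdown array alone.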

How the data were processed

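Gene expression was measured on 5 one-colour Agilent arrays (design 028282), 1 for each group, from Cy3-labelled RNA. The deposited files hold processed signal intensities, which the authors' scanner software had corrected for background, per the file headers (version 11.0.1.1 of Feature Extraction, whereas 9.1 stands in the submitters' processing notes). The authors also deposited a table of log2 values of the same arrays, used as an alternative. Its 5 columns share 1 set of quartiles, with a median of 6.685, and the sources used here do not state the steps that gave it. Precision is limited by the number of arrays.

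Spots of a probe were averaged on the log2 scale, without those marked as uneven or as outliers, and each array's 75th percentile over the probes was subtracted. A probe with every spot marked entered that percentile and had no value of its own. Of 30367 probes, 18005 had 1 current gene symbol and 12362 were unnamed. A gene with several probes (2600 genes) was read from the probe with the highest mean. Differences, calls and bounds were computed as described with the results, with no test. The 95% interval covers the scanner error alone. The 40 gene lists and the markers were chosen with earlier results of these data known, as was the comparison itself.

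The text names Tmub1, up to 4 called genes a direction of each list or role, and the largest differences outside the lists. Ajuba, Cenpa, Dlc1, Gbp2, Parp14, Incenp, Lgals3bp, Ndc80, Nusap1, Rfc3, Rpa2, the genes that are not called and the cell type markers fall outside that rule and were chosen after their values were seen. Results that need items withheld for evaluation are not reported here. Promoters are from RefSeq (GRCr8) and were matched by symbol for 10465 measured genes.

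Alternatives were quantile and cyclic loess scaling, other probes behind the percentile, normexp correction (offset 50) on median pixel intensities, the authors' log2 table, other filters, probes, thresholds and control arrays. The code was tested on simulated data. Tools were R 4.3.3 with limma 3.58.1 and Python 3.11.15 with numpy 2.4.6, pandas 2.3.3 and matplotlib 3.10.9.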

Additional observations from a re-analysis of the deposited data

How the results depend on the processing

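With 1 array a group no replicate could be left out. No paired analysis was possible because each group has 1 array and no test was run. Brightness differed between the arrays, and 0 spots were saturated. Quantile, cyclic loess and the authors' log2 values kept the counts over all genes within 1.5 times of those reported, while counts within some lists moved more, as given beside them. Of the 1085 genes called lower, 692 were also called lower with cyclic loess and 840 with quantile scaling. The Tmub1 difference lay between -1.5 and -1.92 under each alternative run for it. The settings of the percentile, over all non-control spots and without poor probes, were added after the data were seen.

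With normexp the counts were 701 higher and 534 lower, 361 between the negative controls, 812 beyond both negative controls and 568 beyond all 3 controls, where the values reported sum to 1612 and 945. On the second probe of a gene, over 2084 genes, they were 420, 81, 235, 393 and 248. At 2-fold they were 1874, 2069, 2081, 2917 and 1869, and at 4-fold 432, 254, 284, 436 and 204. The percentile over probes above background on all 5 arrays gave 648 lower. The overexpression negative control as control gave 1962 lower and normal cells 2640. Fewer genes and other thresholds set the second-probe and fold counts by construction; the cause of the others was not tested.

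No named gene called here changed sign with another scaling, but calls were lost: of 87 called lower, 63 stayed called with cyclic loess and 61 with normexp, and of 123 called higher, 121 and 103. Against normal cells, genes called lower were higher by 6.34 (Acta1), 4.29 (Ccl11), 3.25 (Cxcl10), 2.75 (Isg15), 2.74 (Usp18), 2.62 (Agt), 2.44 (Oas1i), 2.42 (Rsad2), 1.85 (Oas1k), 1.67 (Rtp4), 1.35 (Irf7), 1.17 (Dusp5), 1.14 (RT1-A2), 1.07 (Pparg), 0.73 (RT1-S3), 0.69 (Cry1), 0.65 (Oasl2), 0.64 (Dhx58), 0.42 (Junb and Spry4), 0.40 (Pdgfrb), 0.20 (Rpia), 0.07 (Btg1), 0.05 (Cdkn1a), 0.03 (Oas1a) and 0.02 (Lgals3bp). Genes called higher differed from normal cells by -0.66 (Fbxo5), -0.54 (Cyp2e1), -0.46 (Ndc80), -0.29 (Tk1), -0.24 (Cenpa) and -0.17 (Kif2c). Against the overexpression negative control the sign turned for Oas1i (1.38), Oas1k (0.52), Oasl2 and Dusp5 (both 0.31), Socs1 (0.17), Dusp10 (0.13), Dhx58 (0.03), Ndc80 (-0.09) and Fbn1 (-0.19). On the second probe it turned for Hnrnph1 (2.19, and 0.16 as the mean of its probes), Zmat3 (1.42), Abcc4 (0.46) and Inhbb (-1.15). The cause was not tested.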
